A study of Mus musculus with 6 samples.

Results

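The genes of the extracellular matrix and of the enzymes that build and cut it were followed in cells sorted from the kidneys of *Trf1* +/+ mice and *Trf1* flox/flox mice. They were chosen by symbol: collagens, laminins, nidogens, perlecan (*Hspg2*), agrin, fibronectin, fibulins and fibrillins, decorin, *Sparc* and lysyl oxidase genes, matrix metalloproteinases (*Mmp*), their inhibitors *Timp1*, *Timp3* and *Timp4*, the *Adam* and *Adamts* families, and the collagen-modifying *Plod* and *P4h* genes. Of the 12125 genes listed, 47 fell under these names, and 33 of them passed the filter for testing between the groups, which asks for 10 normalized counts in 3 or more libraries. All mice, male and female and 6 to 8 weeks old at the start, carried a Col1a2-CreERT2 transgene, a Cre recombinase that works after tamoxifen in cells that use the *Col1a2* promoter, and a KFP allele, whose Katushka fluorescent protein Cre switches on. Both groups were injected with tamoxifen intraperitoneally 3 times a week over 8 weeks, so that *Terf1*, the gene of the telomere protein TRF1, could be deleted in the cells of the *Trf1* flox/flox mice and not in those of the *Trf1* +/+ mice. Kidney cells were stained for the integrin CD29 and for KFP and sorted, although the sources used here do not say whether the sequenced cells carried both, and 500 cells went into each of 3 libraries per genotype, from groups of 3 mice. The sex of the mouse behind each library was not used here.

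The matrix takes different forms in different places. Basement membranes are thin sheets under epithelia and around vessels, in which networks of laminin and type IV collagen are linked by nidogens and the heparan sulfate proteoglycans perlecan and agrin, whereas the interstitium is held by fibrils of collagens such as types I, III and V, made mostly by fibroblasts. Collagen chains are hydroxylated on proline and lysine inside the cell before they are secreted and crosslinked, and metalloproteinases of the *Mmp*, *Adam* and *Adamts* families, held back by *Timp* proteins, cut matrix and cell-surface proteins. In fibrosis of the kidney the interstitial matrix accumulates, which is why these genes are of interest in cells sorted as fibroblasts.

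The libraries held between 10263382 and 12248797 reads on the listed genes, and the values are normalized counts, that is, reads divided by a size factor of each library. A single read was worth 0.689 to 1.09 normalized counts, and a floor was set at 3 reads of a gene per library, which covers counting error only since the reads were amplified by PCR without molecular identifiers. Values are given below for replicates 1, 2 and 3 of each genotype in that order. *Terf1* had 0.891, 253 and 235 normalized counts in *Trf1* +/+ mice and 110.0, 7.65 and 12.4 in *Trf1* flox/flox mice. The library labelled *Trf1* +/+ replicate 1 held a single *Terf1* read, which is low for its label. It also stood apart by its median normalized count of 13.4, against 118 to 148 in the other 5. In it 3158 listed genes had no read, against 532 to 2392 in each of the others. The counts are therefore also given without this library, as are the values of some of the genes that turn on it. The library labelled *Trf1* flox/flox replicate 1 held 128 *Terf1* reads, against 7 and 18 in the other libraries of its genotype. That is high for its label, and some results are also given without this library. Whether the labels of these libraries give the genotype of their cells was not tested. Markers of fibroblasts were scarce: of 12 looked for, only *Col1a2* and *Dcn* were listed, *Col1a1* and *Col3a1* were not analysed here, and the summed level of *Col1a2* and *Dcn* was between 1.66 and 98.4 normalized counts per library. By contrast all 10 markers of proximal tubule cells were listed, with sums between 19959 and 122663. All 6 of the loop of Henle and distal tubule were too, with sums between 58724 and 148137. The genotypes overlapped in each of these sums, but not in every marker. *Slc12a3* and *Calb1* of the second list were lower in every *Trf1* flox/flox library than in every *Trf1* +/+ library. A log2 fold change above 0 was found for 9 and below 0 for 1 of the proximal tubule markers. For the loop and distal markers it was 2 above and 4 below, against 55.9% of all tested genes above 0. Whether the makeup of the cells differed between the genotypes was not tested. The matrix genes below are therefore those of the sorted cells as a whole, and in such bulk libraries fewer cells of a type and less RNA per cell cannot be told apart.

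Not all matrix genes named by the rule were listed, and those that were had patchier counts than the listed genes as a whole. The share of all protein-coding genes that was listed is not given here for comparison. The rule takes in 164 protein-coding genes of the mouse annotation, of which the 47 listed made up 15 of 23 basement membrane genes, 7 of 14 genes of collagen modification, 7 of 24 *Adamts*, 7 of 33 *Adam*, 4 of 10 glycoprotein genes, 3 of 11 fibrillar collagens, 3 of 24 *Mmp* and *Timp* genes and 1 of 25 other collagens. The matrix genes together took 0.0634%, 0.0995% and 0.168% of the reads in *Trf1* +/+ mice and 0.142%, 0.0991% and 0.164% in *Trf1* flox/flox mice. Above the floor of 3 reads were 16, 33 and 36 of the 47 genes in *Trf1* +/+ mice and 34, 23 and 39 in *Trf1* flox/flox mice. In each library this share was lower than that of all listed genes, by the widest margin in the library labelled *Trf1* +/+ replicate 1 (34.0% against 56.2%) and in *Trf1* flox/flox replicate 2 (48.9% against 70.2%). Only 9 of the 47 genes (19.1%) were above the floor in all 6 libraries, against 4999 of all 12125 genes (41.2%). These 9 were *Timp3*, *P4hb*, *Col4a4*, *Col4a3*, *Lamb1*, *Col18a1*, *Lamc1*, *Adamts5* and *Mmp11*.

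**Figure D1:**
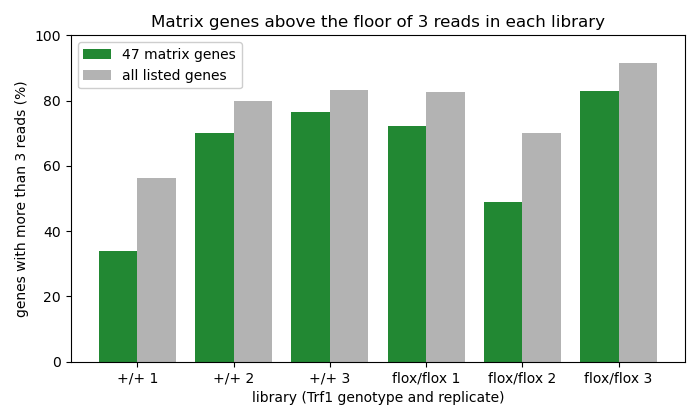
Share of genes with more than 3 reads (vertical axis, percent) in each library (horizontal axis), for the 47 matrix genes (green bars) and for all 12125 listed genes (grey bars). The green bar is the shorter one in all 6 libraries, and both are shortest in *Trf1* +/+ replicate 1, at 34.0% and 56.2%.

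**Figure D2:**
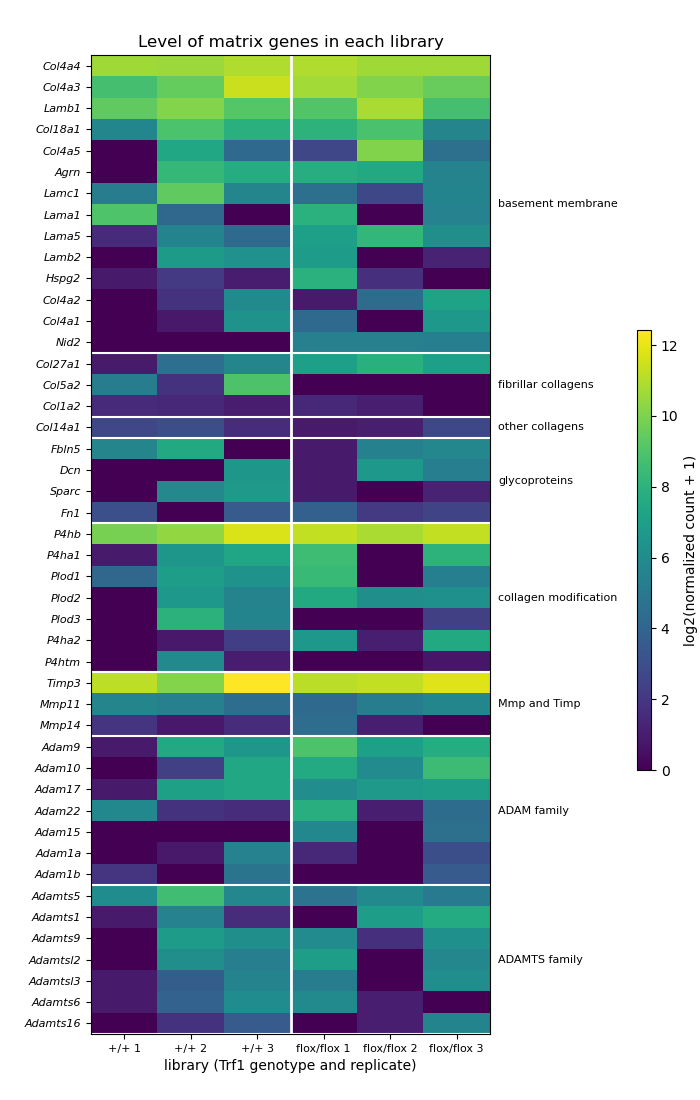
Level of each matrix gene reported here (rows, grouped by role) in each library (columns) as log2 of the normalized count plus 1, on a colour scale. *Timp3*, *P4hb*, *Col4a4* and *Col4a3* are high in all 6 libraries, while most other rows go from at or near 0 in some libraries to well above it in others of the same genotype.

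*Timp3*, *P4hb*, *Col4a4* and *Col4a3* together held between 48.8% and 80.0% of the matrix counts of a library. Per kilobase of exon, the scale on which genes can be compared with each other, *P4hb* had a mean level of 735 normalized counts over the 6 libraries, *Timp3* of 354, *Col4a4* of 161 and *Col4a3* of 123, followed by *Lamb1* at 86.5 and *Adam9* at 44.8. The fibroblast genes *Fn1* and *Col1a2* were at 0.556 and 0.097 on the same scale. The sequence in front of the genes at the top of this order is shown because it is where their transcription starts. It was taken from RefSeq on GRCm38.p6, outside annotated exons and ending at the annotated gene start, with GC boxes (GGGCGG) and CCAAT boxes found on either strand in capitals. TATA boxes (TATAAA) were also searched for on both strands, and the 3 motifs do not overlap each other here. For *Col4a4* the whole gap to its neighbour *Col4a3* is given, since both genes start from it in opposite directions.
Timp3, chr10:86300162-86300371, plus strand: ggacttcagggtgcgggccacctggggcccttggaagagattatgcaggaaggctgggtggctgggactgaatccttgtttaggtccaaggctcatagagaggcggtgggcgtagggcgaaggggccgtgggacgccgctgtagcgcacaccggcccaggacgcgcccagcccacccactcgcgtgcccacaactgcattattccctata
P4hb, chr11:120573254-120573503, minus strand: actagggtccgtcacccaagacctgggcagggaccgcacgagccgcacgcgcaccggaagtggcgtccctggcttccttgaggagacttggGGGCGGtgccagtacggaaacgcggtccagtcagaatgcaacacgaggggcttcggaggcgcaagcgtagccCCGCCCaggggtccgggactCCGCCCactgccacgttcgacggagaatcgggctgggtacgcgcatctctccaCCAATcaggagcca
Col4a4 to Col4a3, chr1:82586850-82586920, minus strand: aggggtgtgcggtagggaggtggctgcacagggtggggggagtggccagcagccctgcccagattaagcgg
The *P4hb* stretch of 250 bases holds 3 GC boxes and 1 CCAAT box, and the 210 bases of *Timp3* and the 71 bases between *Col4a4* and *Col4a3* hold none of the 3 motifs. Their GC content was 66.8%, 63.8% and 69.0%, respectively. Over 32851 promoter windows of 250 bases, 32.7% held a GC box, 33.8% a CCAAT box and 12.4% a TATA box. Of 36 windows of 33 of the matrix genes, 25 (69.4%) held a GC box, 13 (36.1%) a CCAAT box and 3 (8.33%) a TATA box. These 36 windows are of genes listed in these libraries, whereas the 32851 windows were not limited to listed genes. Whether the shares of the matrix genes differ from those of other listed genes was not tested.

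Type IV collagen was represented by the chains of the mature glomerular and tubular network rather than by the chains found in all basement membranes. *Col4a4* (ENSMUSG00000067158, GRCm38 chromosome 1, 82448423 to 82586849) had 1623, 1491 and 1951 normalized counts in *Trf1* +/+ mice and 1977, 1608 and 1623 in *Trf1* flox/flox mice, with means of 1688 ± 237 and 1736 ± 209 (SD, n = 3 each). Its highest library was 1.33 times its lowest, a ratio that only 1 of the 4999 genes above the floor in all libraries undercut, and the median of those genes was 6.11. Among the 1214 of them with a mean of at least 1000, as *Col4a4* has, the median was 3.23, and 1 gene undercut it. The log2 fold change of *Col4a4* was 0.04 (standard error 0.72). *Col4a3* (ENSMUSG00000079465, chromosome 1, 82586921 to 82722059), which shares the 71 bases above with *Col4a4* and whose product joins the same trimer, had 436, 716 and 2730.5 in *Trf1* +/+ mice and 1677, 1079 and 737 in *Trf1* flox/flox mice. *Col4a3* shares 563 exonic bases with *C430014B12Rik* on the opposite strand, which had 8.59 to 198 normalized counts per library. The genotypes overlapped for both collagens, and *Col4a3* varied 6.27-fold between its highest and lowest library. *Col4a5*, the X-linked partner in that trimer, had 0, 169 and 17.7 in *Trf1* +/+ mice and 5.16, 1059 and 23.4 in *Trf1* flox/flox mice, so that it was high in a single library of each genotype.

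*Col4a1* and *Col4a2*, whose products form the common type IV trimer, had few reads. *Col4a1* had 0, 0.829 and 83.8 normalized counts in *Trf1* +/+ mice and 18.0, 0 and 97.9 in *Trf1* flox/flox mice. *Col4a2*, its neighbour on chromosome 8, had 0, 2.49 and 61.1 in *Trf1* +/+ mice and 0.859, 19.7 and 146 in *Trf1* flox/flox mice, and both genes were highest in replicate 3 of each genotype. Per kilobase, *Col4a3* and *Col4a4* summed to 197 to 458 normalized counts and *Col4a1* and *Col4a2* to 0 to 35.2 per library, so that the order of the pairs was the same in all 6. *Col18a1*, the type XVIII collagen of basement membranes whose end piece is endostatin, had 51.7, 485 and 235 in *Trf1* +/+ mice and 261, 462 and 48.9 in *Trf1* flox/flox mice, and the genotypes overlapped.

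Among the laminins, cross-shaped trimers of an α, a β and a γ chain, the β1 chain was the steadiest. *Lamb1* (ENSMUSG00000002900, chromosome 12, 31265234 to 31329644) had 674, 1125 and 558 normalized counts in *Trf1* +/+ mice and 526, 1834 and 430.0 in *Trf1* flox/flox mice, with a log2 fold change of -0.01 (standard error 0.92). It held between 47.3% and 72.9% of the laminin level per kilobase in each library. The γ1 chain, with which β1 is assembled, was high in 1 library only: *Lamc1* had 35.6, 664 and 49.3 in *Trf1* +/+ mice and 23.2, 5.46 and 47.5 in *Trf1* flox/flox mice. Its log2 fold change was -2.44 (standard error 1.46), while the genotypes overlapped. *Lama1* had 504, 17.4 and 0 in *Trf1* +/+ mice and 246, 0 and 44.1 in *Trf1* flox/flox mice, and it is the only tested matrix gene that was highest in the library labelled *Trf1* +/+ replicate 1. *Lamb2* had 0, 107 and 77.8 in *Trf1* +/+ mice and 112, 0 and 1.38 in *Trf1* flox/flox mice, and it was at 0 in a library of each genotype.

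*Lama5*, the α5 chain of adult basement membranes (ENSMUSG00000015647, chromosome 2, 180176373 to 180225859), had 1.78, 48.1 and 17.7 normalized counts in *Trf1* +/+ mice and 128, 304 and 69.6 in *Trf1* flox/flox mice. The lowest *Trf1* flox/flox library lay above the highest *Trf1* +/+ library, and the means were 22.5 ± 23.5 and 167 ± 122 (SD, n = 3 each). Unless another setting is named, fold changes here are differences between the genotype means of log2(normalized count + 1). They can be smaller or larger than those of DESeq2, a count model. *Nid2* was at 5.40 here and at 7.97 in DESeq2, whereas *Adam10* was at 4.09 here and at 1.78 in DESeq2. Genes were tested with limma, a linear model fitted to all 9966 tested genes with Benjamini-Hochberg adjustment. The log2 fold change of *Lama5* was 3.36 (standard error 1.31), with an unadjusted p of 0.0419 and an adjusted p of 0.996 in limma. Without the library labelled *Trf1* +/+ replicate 1 the log2 fold change of *Lama5* was 2.21 (standard error 0.99).

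*Nid2*, which encodes nidogen-2, a linker of laminin and type IV collagen (ENSMUSG00000021806, chromosome 14, 19751265 to 19811787), had no read in any *Trf1* +/+ library. It had 42.1, 41.5 and 40.0 normalized counts, or 49, 38 and 58 reads, in the *Trf1* flox/flox libraries. The mean of 41.2 ± 1.10 (SD, n = 3) was at least 15.2-fold higher, taking the mean over the *Trf1* +/+ libraries of the floor of 3 reads per library. The fitted log2 fold change was 5.40 (standard error 0.71), with an unadjusted p of 0.000249 and an adjusted p of 0.110 in limma. The adjusted p lay between 0.0863 with upper quartile scaling and 0.999 in edgeR over the alternatives in which the gene was tested. *Nid2* passed the filter only through the *Trf1* flox/flox libraries, so it had to differ. This was so for 128 of the tested genes, and for 21 others through the *Trf1* +/+ libraries. The gene could not be tested when any *Trf1* flox/flox library was left out. Exons of *Nid2* share 437 bases with *Rtraf* on the opposite strand, the libraries do not mark strand, and *Rtraf* had 982, 612 and 715 normalized counts in *Trf1* +/+ mice and 460, 779 and 891 in *Trf1* flox/flox mice. The part of such reads in the *Nid2* counts was not tested.

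The proteoglycans of the basement membrane were uneven. *Agrn*, which encodes agrin, had 0, 313 and 207 normalized counts in *Trf1* +/+ mice and 209.6, 187 and 46.2 in *Trf1* flox/flox mice, with only the library labelled *Trf1* +/+ replicate 1 at 0. *Hspg2*, the perlecan gene, was above the floor in the library labelled *Trf1* flox/flox replicate 1 and in 1 *Trf1* +/+ library, with 0.891, 3.31 and 0.985 in *Trf1* +/+ mice and 242, 2.19 and 0 in *Trf1* flox/flox mice, and it did not pass the filter. Of the 14 basement membrane genes tested, 11 had a log2 fold change above 0 and 3 below 0, with a median of 0.62, and none passed the adjusted threshold of 0.05. Of all genes tested 55.9% were above 0. Without the library labelled *Trf1* +/+ replicate 1 it was 5 of 14, with a median of -0.07, against 49.0% of all genes.

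**Figure D3:**
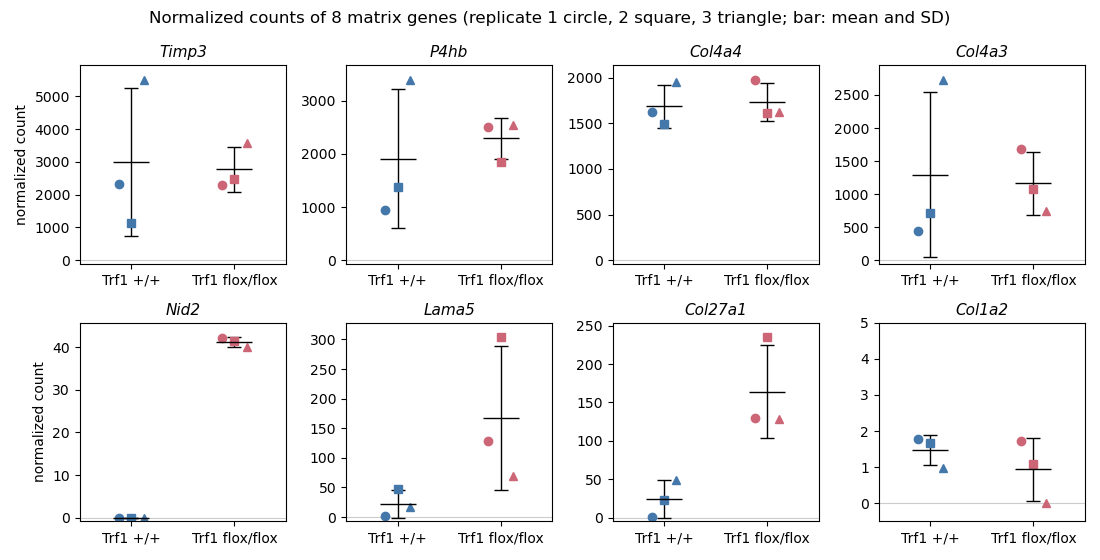
Normalized counts (vertical axes, each with its own range) of 8 matrix genes in the *Trf1* +/+ (blue) and *Trf1* flox/flox (red) libraries. Circles, squares and triangles are replicates 1, 2 and 3, and bars give the mean and SD of 3 libraries. *Col4a4* lies between 1491 and 1977 in all 6 libraries, *Nid2* is at 0 in *Trf1* +/+ and at 40.0 to 42.1 in *Trf1* flox/flox mice, *Lama5* and *Col27a1* do not overlap, and *Col1a2* reaches 1.78 at most.

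The only chain of type I or III collagen listed was at the floor. *Col1a2* (ENSMUSG00000029661, chromosome 6, 4504814 to 4541544), which encodes a chain of type I collagen and whose promoter drives the Cre of these mice, had 1.78, 1.66 and 0.985 normalized counts in *Trf1* +/+ mice and 1.72, 1.09 and 0 in *Trf1* flox/flox mice, which is at most 2 reads in any library. It was the only matrix gene above the floor in none of the 6. *Col5a2*, a chain of type V collagen, was above 0 only in *Trf1* +/+ mice, with 37.4, 2.49 and 503 normalized counts, and had no read in *Trf1* flox/flox mice, so the genotypes did not overlap. The 3 *Trf1* +/+ libraries held 42, 3 and 510 reads, so the gene did not reach 10 normalized counts in 3 libraries and was not tested. With no filter, or with a filter on the mean, it was at an unadjusted p under 0.05 in limma. It had no *Trf1* flox/flox read and passed the filter on the mean only through the *Trf1* +/+ libraries. It therefore had to be lower in *Trf1* flox/flox mice. *Col27a1*, a fibrillar collagen best known from cartilage (ENSMUSG00000045672, chromosome 4, 63214004 to 63334991), had 0.891, 22.4 and 49.3 normalized counts in *Trf1* +/+ mice and 129.7, 235 and 128 in *Trf1* flox/flox mice. Every *Trf1* flox/flox library lay above every *Trf1* +/+ library, and the means were 24.2 ± 24.2 and 164 ± 61.2 (SD, n = 3 each). Its log2 fold change of 3.60 (standard error 1.38) had an unadjusted p of 0.0390 and an adjusted p of 0.996 in limma. Without the library labelled *Trf1* +/+ replicate 1 it was 2.21 (standard error 0.79).

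*Col14a1*, a fibril-associated collagen, was the only other collagen listed, with 5.34, 6.63 and 1.97 normalized counts in *Trf1* +/+ mice and 0.859, 1.09 and 5.51 in *Trf1* flox/flox mice. The glycoproteins of the interstitium were equally low or present in some libraries only. *Fn1*, fibronectin, had 7.13, 0 and 10.8 in *Trf1* +/+ mice and 12.9, 3.28 and 4.82 in *Trf1* flox/flox mice. *Dcn*, the small proteoglycan decorin, had 0, 0 and 93.6 in *Trf1* +/+ mice and 0.859, 97.3 and 39.3 in *Trf1* flox/flox mice, and its log2 fold change of 2.09 (standard error 2.37) was smaller than its standard error and was 1.00 (standard error 2.67) without the library labelled *Trf1* +/+ replicate 1. *Sparc*, a collagen-binding protein, had 0, 56.3 and 104 in *Trf1* +/+ mice and 0.859, 0 and 1.38 in *Trf1* flox/flox mice. Only *Trf1* +/+ replicates 2 and 3 were above the floor for *Sparc*, and the gene did not pass the filter. *Fbln5*, the elastic fibre protein fibulin-5, had 49.0, 185 and 0 in *Trf1* +/+ mice and 0.859, 42.6 and 52.4 in *Trf1* flox/flox mice. Groups overlapped for each of these genes, and only *Dcn* and *Fbln5* could be tested.

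Among the enzymes that modify collagen, *P4hb* was the most highly expressed. It encodes protein disulfide isomerase, which is also the β subunit of prolyl 4-hydroxylase (ENSMUSG00000025130, chromosome 11, 120560298 to 120573253). It had 953, 1384 and 3394 normalized counts in *Trf1* +/+ mice and 2501, 1846 and 2537 in *Trf1* flox/flox mice, and the log2 fold change was 0.46 (standard error 0.85), or 0.07 (standard error 0.78) without the library labelled *Trf1* +/+ replicate 1. The catalytic α subunits were patchy. *P4ha1* had 0.891, 96.1 and 164 in *Trf1* +/+ mice and 379.8, 0 and 261 in *Trf1* flox/flox mice, and thus at most 1 read in a library of each genotype. *P4ha2* had 0, 0.829 and 3.94 in *Trf1* +/+ mice and 98.8, 1.09 and 187 in *Trf1* flox/flox mice, with the libraries labelled *Trf1* flox/flox replicates 1 and 3 high and replicate 2 at a single read. *P4htm*, a transmembrane prolyl hydroxylase, was above the floor in *Trf1* +/+ replicate 2 alone, with 61.3 normalized counts.

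The lysyl hydroxylases *Plod1*, *Plod2* and *Plod3* prepare the sites of collagen crosslinks. *Plod2*, which acts on the ends of the chains, had 0, 97.8 and 46.3 normalized counts in *Trf1* +/+ mice and 187, 71.0 and 73.7 in *Trf1* flox/flox mice. Its log2 fold change was 2.59 (standard error 1.84) and was 0.56 (standard error 0.86) without the library labelled *Trf1* +/+ replicate 1, where it was at 0. *Plod1* had 16.0, 121 and 83.8 in *Trf1* +/+ mice and 326, 0 and 40.7 in *Trf1* flox/flox mice, and *Plod3* had 0, 249 and 48.3 in *Trf1* +/+ mice and 0, 0 and 4.13 in *Trf1* flox/flox mice. *Plod3* shares 529 exonic bases with *Znhit1* on the opposite strand, which had 332 to 1000 normalized counts per library. Lysyl oxidase genes were not analysed here. Of the 4 genes of this class tested, 3 had a log2 fold change above 0 and 1 below 0, with a median of 0.52, against 55.9% of all genes above 0. It was 2 of 4 with a median of -0.69 without the library labelled *Trf1* +/+ replicate 1, against 49.0%.

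*Timp3*, an inhibitor of metalloproteinases that is bound to the matrix (ENSMUSG00000020044, chromosome 10, 86300372 to 86349506), had 2339, 1127 and 5505 normalized counts in *Trf1* +/+ mice and 2294, 2477 and 3565 in *Trf1* flox/flox mice. The genotypes overlapped, the means were 2990.4 ± 2261 and 2779 ± 687 (SD, n = 3 each), and the log2 fold change was 0.16 (standard error 0.90). *Timp3* shares 1733 bases of exon with *Syn3* on the opposite strand, and *Syn3* had 14.2 to 257 normalized counts per library. Against this single abundant inhibitor stood few proteases of the *Mmp* family. *Mmp11*, stromelysin-3, was low in all 6 libraries, with 49.0, 41.4 and 20.7 in *Trf1* +/+ mice and 18.0, 37.2 and 50.3 in *Trf1* flox/flox mice. It shares 155 exonic bases with *Chchd10* on the opposite strand, which had 13854, 12716 and 7383 normalized counts in *Trf1* +/+ mice and 7640.2, 8283 and 12863 in *Trf1* flox/flox mice, and the part of such reads in the *Mmp11* counts was not tested. *Mmp14*, the membrane-anchored activator of *Mmp2*, was above the floor in the library labelled *Trf1* flox/flox replicate 1 alone, with 20.6 normalized counts, and no other *Mmp* gene was listed. *Timp3* and *Mmp11* were the only genes of this class tested, with log2 fold changes on either side of 0.

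The *Adam* genes encode membrane-anchored metalloproteinases that shed the outer part of surface proteins. *Adam10*, which cuts Notch receptors among others, had 0, 4.14 and 176 normalized counts in *Trf1* +/+ mice and 192, 62.3 and 367 in *Trf1* flox/flox mice. *Adam9* had 0.891, 181 and 94.6 in *Trf1* +/+ mice and 498, 127 and 205 in *Trf1* flox/flox mice. The log2 fold changes were 4.09 (standard error 2.01) and 2.88 (standard error 1.87), and without the library labelled *Trf1* +/+ replicate 1, in which both were at the floor, they were 2.45 (standard error 1.79) and 0.84 (standard error 0.92). *Adam17*, the TNF-converting enzyme, had 0.891, 133 and 176 in *Trf1* +/+ mice and 66.2, 104 and 121 in *Trf1* flox/flox mice, so that the library labelled *Trf1* +/+ replicate 1 stood alone at 1 read. Without it all *Trf1* +/+ libraries lay above all *Trf1* flox/flox libraries, and the log2 fold change turned from 1.42 to -0.70. *Adam17* shares 311 exonic bases with *Iah1* on the opposite strand, which had 486 to 1719 normalized counts per library.

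*Adam22*, a member without protease activity, had 55.2, 2.49 and 1.97 normalized counts in *Trf1* +/+ mice and 223, 1.09 and 20.0 in *Trf1* flox/flox mice. *Adam15* had no read in *Trf1* +/+ mice and 54.1, 0 and 23.4 normalized counts in *Trf1* flox/flox mice. It did not pass the filter, nor did *Adam1a*, with at most 45.3, or *Adam1b*, with at most 26.6 normalized counts, both highest in *Trf1* +/+ replicate 3. All 4 *Adam* genes tested had a log2 fold change above 0, with a median of 2.15, against 55.9% of all genes above 0, and none had an unadjusted p under 0.05. Without the library labelled *Trf1* +/+ replicate 1, when *Adam22* no longer passed the filter, 2 of 3 were above 0 with a median of 0.84, against 49.0%.

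The *Adamts* genes encode secreted metalloproteinases that cut aggrecan, versican and other proteoglycans. *Adamts5* was the only one above the floor in all libraries, with 65.9, 394 and 53.2 normalized counts in *Trf1* +/+ mice and 25.8, 57.9 and 35.1 in *Trf1* flox/flox mice. Its log2 fold change was -1.55 (standard error 1.06), and the genotypes overlapped. Its neighbour *Adamts1* on chromosome 16 had 0.891, 43.9 and 1.97 in *Trf1* +/+ mice and 0, 120.2 and 198 in *Trf1* flox/flox mice, high in *Trf1* flox/flox replicates 2 and 3 and at 0 in replicate 1. *Adamts9* had 0, 118 and 72.9 in *Trf1* +/+ mice and 61.9, 2.19 and 74.4 in *Trf1* flox/flox mice. *Adamts6* had 0.891, 14.1 and 66.0 in *Trf1* +/+ mice and 58.4, 1.09 and 0 in *Trf1* flox/flox mice, and *Adamts16*, which did not pass the filter, was at most 47.5. The *Adamts*-like genes, which have no protease domain, were also at the floor in 1 library of each genotype. *Adamtsl2* had 0, 68.8 and 38.4 in *Trf1* +/+ mice and 122, 0 and 53.7 in *Trf1* flox/flox mice, and *Adamtsl3* had 0.891, 11.6 and 46.3 in *Trf1* +/+ mice and 36.9, 0 and 66.2 in *Trf1* flox/flox mice. Of the 6 genes of the family tested, 4 had a log2 fold change above 0 and 2 below 0, with a median of 0.33, against 55.9% of all genes above 0. Only *Adamts1* of the 6 was above 0 without the library labelled *Trf1* +/+ replicate 1, with a median of -1.70, against 49.0%.

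Between the genotypes, no matrix gene passed an adjusted p of 0.05 in limma, as was the case for all 9966 genes tested (0.0%). At an unadjusted p under 0.05 stood *Lama5* and *Col27a1*, 2 of the 32 tested matrix genes other than *Nid2*, and *Nid2*, which had to differ by the way it passed the filter. Of all tested genes 4.56% stood at that threshold, and 3.54% did so with a higher level in *Trf1* flox/flox mice, which was the direction of all 3 of these matrix genes. The same 3 were the tested matrix genes whose genotypes did not overlap, against 8.68% of all genes in either direction and 5.35% higher in *Trf1* flox/flox mice. Of the 33 matrix genes, 25 had a log2 fold change above 0 and 8 below 0, with a median of 0.46 and a range from -2.44 to 5.40. Of all tested genes 55.9% had a value above 0, with a median of 0.20. In edgeR and DESeq2, count models run on the recovered reads, 20 of the 33 had a value above 0, against 48.3% of all genes in both. In both, *Nid2*, whose difference the filter fixed, was the only matrix gene at an unadjusted p under 0.05. Of all 9966 genes, 196 stood at that threshold in edgeR and 410 in DESeq2. DESeq2 called 58 of all genes (0.582%) at an adjusted p under 0.05 and none of the 31 matrix genes to which it gave one, the lowest being 0.878 for *Nid2*.

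The balance of directions among the matrix genes depended on the library labelled *Trf1* +/+ replicate 1, as did that of all genes. This library was the lowest or tied for the lowest in 18 of the 33 tested genes. The share over all genes is not reported here. Without this library, 15 of 32 genes had a log2 fold change above 0, where 49.0% of all genes tested did. The median was then -0.03 against -0.02 for all genes. The sign turned from above to below 0 in 11 genes, among them *Col4a1*, *Col4a3*, *Col4a5*, *Col18a1*, *Agrn*, *P4ha1*, *Adam17*, *Adamts9*, *Adamtsl2* and *Adamtsl3*. It turned from below to above 0 in *Fbln5* and *Mmp11*, and the share of all genes that turned is not reported here. *Nid2* and *Col27a1* were then at an unadjusted p under 0.05, against 438 of all 9699 genes, and *Lama5* was not. All 3 of these genes still did not overlap. With *Adam17* and *Lamc1*, which were lower in *Trf1* flox/flox mice, 5 of 32 matrix genes then did not overlap, against 17.9% of all genes. Of these 5, *Nid2* could not overlap by the way it passed the filter. Leaving out *Trf1* flox/flox replicate 3 also lowered the count, to 14 of 27 genes above 0 with a median of 0.09, where 52.0% of all genes were above 0, and the median was 1.09, 1.18 and 1.06 without *Trf1* +/+ replicate 2, *Trf1* +/+ replicate 3 and *Trf1* flox/flox replicate 2. Without the library labelled *Trf1* flox/flox replicate 1, 17 of 28 genes were above 0 with a median of 0.35, against 53.8% of all genes. Only *Adamts1* was then at an unadjusted p under 0.05, against 216 of all 9006 genes. Without *Trf1* flox/flox replicate 2 or 3 no matrix gene was, against 206 of 9383 and 323 of 8727 genes, respectively.

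**Figure D4:**
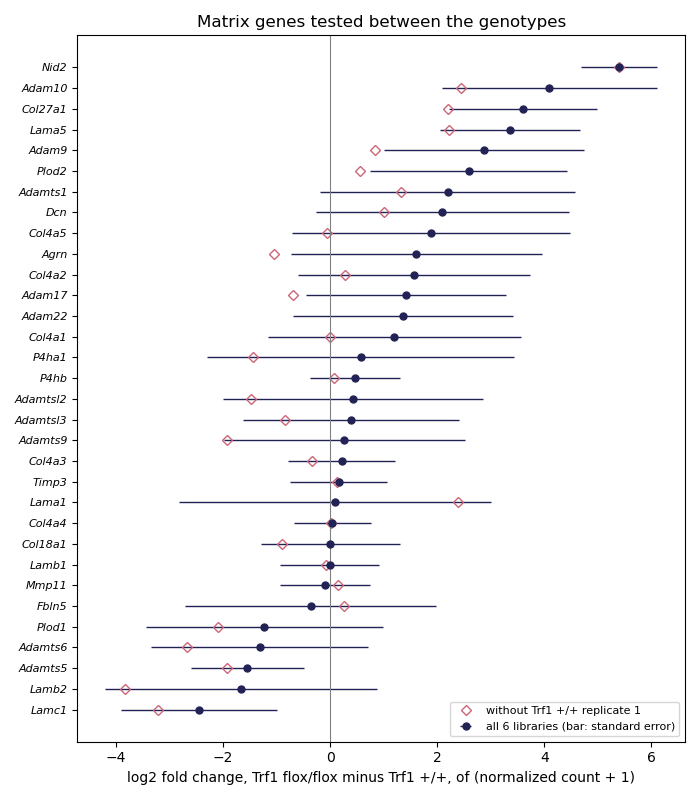
Log2 fold change of *Trf1* flox/flox over *Trf1* +/+ mice (horizontal axis, of the normalized count plus 1) for the tested matrix genes reported here (vertical axis), with bars of 1 standard error from limma. Red diamonds give the value without the library labelled *Trf1* +/+ replicate 1, which is missing for *Adam22*. *Nid2* at 5.40 lies far from 0, most bars reach across 0, and most diamonds lie to the left of their points.

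Matrix genes outside the naming rule were read from a further list of 72 genes, of which 27 were listed and 22 tested. Of these, 13 had a log2 fold change above 0 and 9 below 0, with a median of 0.13, against 55.9% of all tested genes above 0. Without the library labelled *Trf1* +/+ replicate 1 it was 8 of 22 above 0, against 49.0%. None of the 22 had an unadjusted p under 0.05 in limma, against 4.56% of all tested genes. None had genotypes that did not overlap, against 8.68%. *Spp1*, the secreted phosphoprotein osteopontin, had 24672, 32696 and 27905 normalized counts in *Trf1* +/+ mice and 37975, 16736 and 15213 in *Trf1* flox/flox mice. *Ctsb*, the lysosomal protease cathepsin B, had 8761, 5559.7 and 6501 in *Trf1* +/+ mice and 5813, 7393 and 4958 in *Trf1* flox/flox mice. *Pcolce*, which speeds the trimming of fibrillar procollagen, had 2636, 2128 and 1338 in *Trf1* +/+ mice and 1604, 1809.7 and 1061 in *Trf1* flox/flox mice, and *Serpinh1*, the collagen chaperone Hsp47, had 161, 351 and 327 in *Trf1* +/+ mice and 646, 221 and 167 in *Trf1* flox/flox mice. These 4 genes were chosen for mention after their values were seen, and the genotypes overlapped for each.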

How the data were processed

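RNA of 500 sorted kidney cells per library was reverse transcribed from an oligo(dT) primer with template switching and amplified by PCR, and the libraries do not mark strand. Per the paper's methods and the submitters' notes, the authors checked the reads with FastQC 0.11.7, aligned them with TopHat2 2.0.10, Bowtie 1.0.0 and SAMtools 0.1.19 and counted them on GENCODE genes with HTSeq 0.6.1. The methods name GRCm38 and the notes GRCm39. Positions and exon lengths here are from a GENCODE annotation of GRCm38, in which all 47 matrix genes were found, and no coordinate comes from the deposited values. The authors deposited normalized counts, the reads of a gene divided by a size factor of its library, as a coverage-like signal. All values (100%) were whole multiples of 1 read within 0.001 read, so reads were recovered. Genes that reached 10 normalized counts in 3 or more libraries (9966, of them 33 matrix genes) were compared on log2(normalized count + 1) with limma 3.58.1 (two-sided, variance prior without trend, Benjamini-Hochberg over all of them) in R 4.3.3. Genotypes are those of the labels. Replicate numbers follow the order of the samples and pair no mice. edgeR 4.0.16 (quasi-likelihood) and DESeq2 1.42.0 on the recovered reads, limma with trend, pseudocounts of 0.5 and 10, no filter, a mean of at least 50, upper quartile scaling and leaving out each library were alternatives. Genes were named by rule: fibroblast genes, those at an unadjusted p under 0.05, those at the floor in one genotype only, the 2 most abundant and the most changed gene of each role, and *Nid2*, *Lamb1*, *P4ha1* and *P4ha2*; the other matrix genes are given by their values. The matrix genes, lists and rules were chosen with earlier results of these data known. Promoter sequences are from RefSeq on GRCm38.p6. Protein sequences were not used here. A single tested matrix gene counts in the totals and is not reported here.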

Additional observations from a re-analysis of the deposited data

How the results depend on the processing

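No matrix gene passed an adjusted p of 0.05 in limma under any alternative or with any library left out. The count at an unadjusted p under 0.05, which was 3, was 1 in edgeR, in DESeq2 and in limma with trend. Of all 9966 genes, 196, 410 and 312 stood at that threshold in them, respectively. With a library left out the count was 0 to 3, where between 206 of 9383 and 792 of 8980 genes stood at it. With no filter the count was 4, against 561 of 12110 genes. The count without overlap was then also 4, and its share over all genes is not reported here. The fourth gene was *Col5a2*, which with no read in *Trf1* flox/flox mice could only be lower there. With a mean of at least 50 the 3 were *Col27a1*, *Col5a2* and *Lama5*, against 394 of 8985 genes. *Col5a2* passed that filter only through the *Trf1* +/+ libraries. The count of matrix genes whose genotypes did not overlap was 3 to 7 with a library left out, where 14.6% to 25.5% of all genes did not overlap. It includes *Nid2*, for which the filter fixed this, wherever a *Trf1* +/+ library was the one left out. The number with a log2 fold change above 0 was then 14 to 24, against 49.0% to 58.4% of all genes. The median of the matrix genes was -0.03 to 1.18, against -0.02 to 0.31 for all genes. Of 226 values of the named genes under an alternative, 200 kept their direction and 26 reversed. *Col4a3* was -0.19 in edgeR and -0.15 in DESeq2, *Timp3* -0.068 and -0.097, and *Lamb1* 0.19 and 0.25. With upper quartile scaling, which moved the median of all genes from 0.20 to 0.35, *Lamb1* was 0.17 and *Mmp11* 0.072, and 27 of 33 matrix genes were above 0 against 60.9% of all genes. In edgeR and DESeq2 that median was -0.04 and -0.05. With a library left out, *Col4a3* lay between -0.35 and 0.98, *Col4a4* between -0.055 and 0.15, *Timp3* between -0.40 and 0.75, *Lamb1* between -0.66 and 0.39, *Mmp11* between -0.46 and 0.30, *Fbln5* between -2.56 and 1.20 and *P4ha1* between -1.45 and 3.34. Overlap was not recomputed for the pseudocounts, which leave it as it is, or for the count models, which scale the libraries anew. No paired analysis was possible because the labels give no shared replicate numbers. Differences of genes at or near the floor of 3 reads were not detectable at this depth.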
